A study of Mus musculus with 18 samples.

Results

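The crypt base stem cell and Wnt target genes measured here are Lgr5, Ascl2, Olfm4, Smoc2, Axin2, Gkn3, Rnf43, Znrf3, Sox9 and Tnfrsf19. They were taken from the table by symbol, with no value of the table in the rule, all 10 were found among the 55487 genes of the table, each on 1 row, and all 10 were among the 15247 genes with enough counts to be tested. Bulk RNA was sequenced from organoids, epithelial cultures that self-organise into crypt- and villus-like domains, grown from the small intestine of wild-type C57BL/6 mice, all of them female. Organoids were exposed for 4 days to norepinephrine at 1 μM, which activates α- and β-adrenergic receptors, with HCl as its vehicle, or to UK14,304 at 1 μM, an agonist of α2-adrenergic receptors, with DMSO as its vehicle. There were 4 HCl vehicle, 5 norepinephrine, 4 DMSO vehicle and 5 UK14,304 libraries, each carrying a replicate number from m1 to m5, and m5 was present only in the agonist groups.

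Wnt signalling sustains the stem cells at the base of the intestinal crypt. A Wnt ligand bound by a Frizzled receptor stabilises β-catenin, which then joins TCF factors to switch on target genes, and R-spondins strengthen the signal by keeping the ubiquitin ligases RNF43 and ZNRF3 away from the receptors. Several of the genes measured here sit at more than one place in this circuit: Lgr5 encodes an R-spondin receptor, Rnf43, Znrf3 and Axin2 encode inhibitors that are themselves Wnt targets, and Ascl2 encodes a transcription factor of the stem cell programme. Olfm4, Smoc2, Gkn3 and Tnfrsf19 are markers of crypt base cells, and Sox9 encodes a transcription factor of crypt base and Paneth cells.

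Total counts lay between 21.87 and 27.85 M per library. The gene CT010467.1, annotated as ribosomal RNA, took 1.83 to 3.06% of the counts in 7 libraries (1 HCl vehicle, 2 norepinephrine, 3 DMSO vehicle and 1 UK14,304) and 0.313 to 0.619% in the other 11. The epithelial identity of the cultures was clear from their markers, with Epcam at a mean of 1438 CPM (counts per 1000000 counts of the library, scaled by TMM), whereas 6 markers of non-epithelial cells summed to between 0.781 and 2.52 CPM in a library.

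The 10 genes spanned almost the whole range of expression (plot of the 10 genes by library). On the scale of CPM per kilobase of merged exons (RPKM), Olfm4 reached 1152 ± 217 in the vehicle libraries (SD, n = 8), which placed it 14th from the top of all genes tested. Smoc2 followed at 47.1 ± 2.98, Axin2 at 36.6 ± 4.89, Sox9 at 30.5 ± 1.86, Gkn3 at 21.99 ± 2.91, Lgr5 at 18.6 ± 1.72, Rnf43 at 17.3 ± 0.999, Ascl2 at 9.57 ± 1.25 and Znrf3 at 4.13 ± 0.349. Tnfrsf19 came last at 0.144 ± 0.0901 RPKM and was counted only 4 to 39 times per library, so its values carry by far the widest errors of the 10. The order of the group means was the same in all 4 groups. Not every neighbour in it was separated: the ranges over the 8 vehicle libraries overlapped between Smoc2 and Axin2, Axin2 and Sox9, Gkn3 and Lgr5, and Lgr5 and Rnf43. Gkn3 exceeded Lgr5 in 7 of the 8 vehicle libraries and Lgr5 exceeded Rnf43 in 6.

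**Figure D1:**
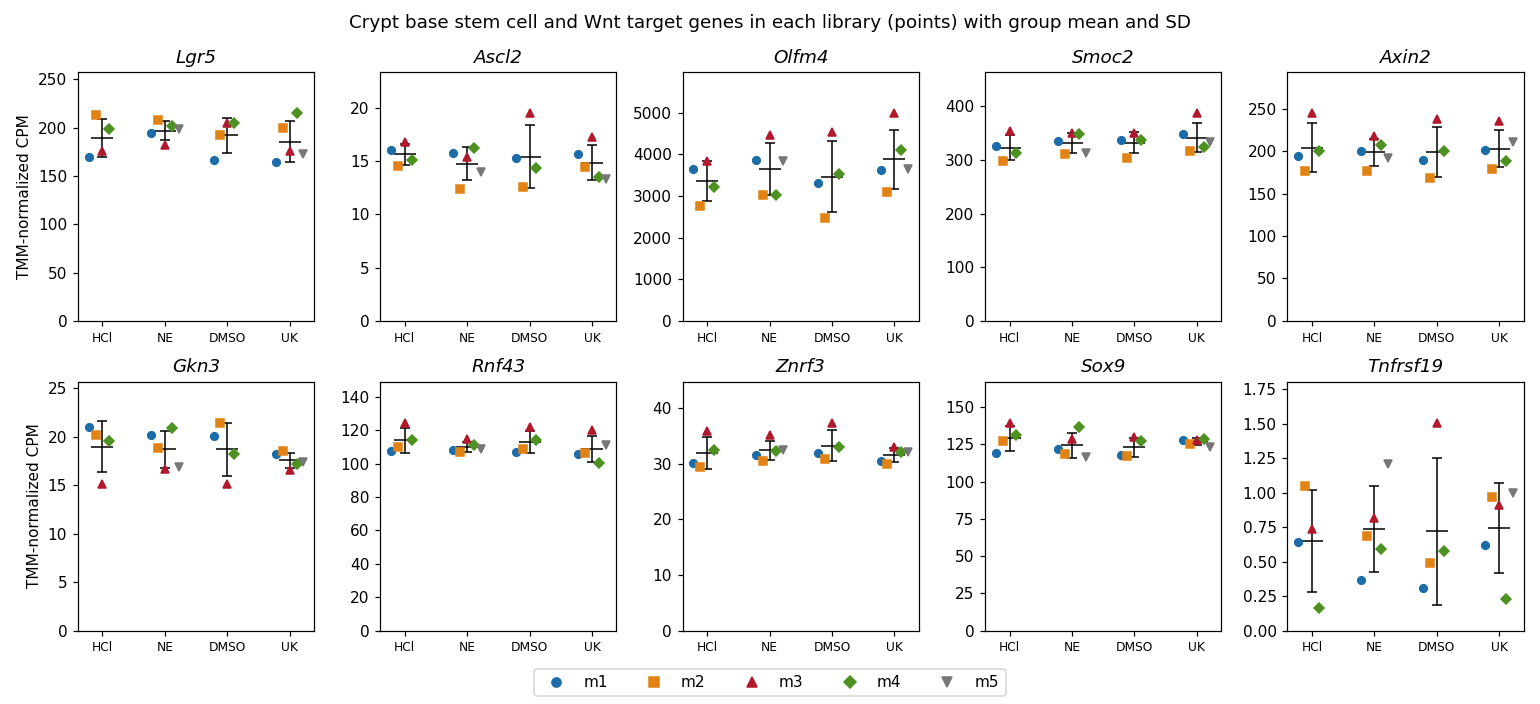
TMM-normalized CPM (linear axes from 0) of the 10 genes in each of the 18 libraries, by group (HCl vehicle, norepinephrine as NE, DMSO vehicle, UK14,304 as UK). Symbols mark the replicate number, and bars the group mean and SD. The groups overlap for every gene, and the m3 libraries stand at the top for Olfm4, Smoc2, Axin2, Rnf43 and Znrf3 in each group.

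Both agonists were compared with their own vehicle to ask whether adrenergic stimulation altered the stem cell and Wnt target programme. None of the 10 genes passed an adjusted p of 0.05 (edgeR quasi-likelihood test, replicate number as a block) in either comparison, where 0.105% of all genes passed with norepinephrine and 1.22% with UK14,304 (plot of the agonist effects). At an unadjusted p of 0.05, 0 of the 10 passed with norepinephrine against 8.40% of all genes, and 1 with UK14,304, Olfm4, against 14.8% of all genes. The unadjusted count with UK14,304 was 3 of the 10 with the trend on GC content removed from each library (Olfm4, Smoc2 and Axin2, whose log2 fold change was then 0.093 in place of 0.033) and 0 with the ribosomal RNA share as a factor or without the replicate block. The count over all genes moved as well. It was 2675 with the GC trend removed, 1245 with the ribosomal RNA factor and 1708 without the replicate block, in place of 2256. With norepinephrine, removing the GC trend gave 1 of the 10, Smoc2 (log2 fold change 0.066, unadjusted p = 0.0217), and 1365 of all genes in place of 1280. DESeq2 with the same block called 0 of the 10 in both comparisons. The log2 fold changes of the 10 ran from -0.056 to 0.11 with norepinephrine (median 0.011, 6 above and 4 below 0) and from -0.11 to 0.18 with UK14,304 (median -0.032, 4 above and 6 below 0). The libraries were made from bulk RNA, so fewer cells of a type and less RNA per cell cannot be told apart in any of these values.

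**Figure D2:**
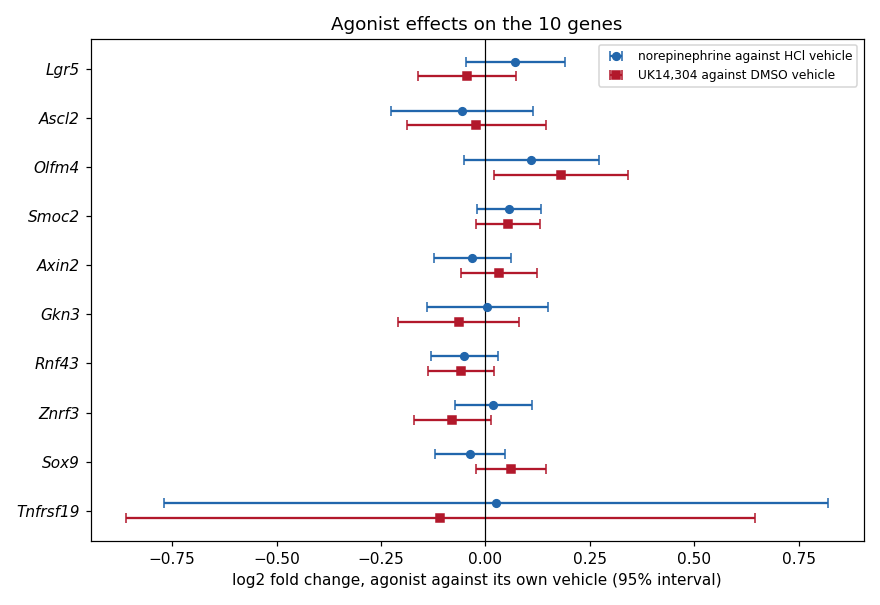
log2 fold change of each gene with norepinephrine (blue circles) and UK14,304 (red squares) against its own vehicle, with 95% intervals from the edgeR fit. All intervals include 0 except that of Olfm4 with UK14,304, and those of Tnfrsf19 are several times wider than the rest.

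Olfm4, which encodes a secreted glycoprotein abundant in crypt base cells, gave the highest estimate with each agonist. It was measured at 3306, 2467, 4539 and 3518 CPM in the DMSO vehicle libraries m1 to m4, and at 3618, 3086, 4984, 4098 and 3645 CPM in the UK14,304 libraries m1 to m5. The 2 groups overlapped, but at each of the 4 shared replicate numbers the UK14,304 library was the higher one, a pattern shown by 14.0% of all genes. The fold change was 1.13 (95% interval 1.01 to 1.27, adjusted p = 0.286), and DESeq2 did not call it. The call depended on the fit: with the DMSO vehicle and UK14,304 libraries alone in the model the log2 fold change was 0.21 with an adjusted p of 0.00928, and without a filter on low counts it was 0.18 with an adjusted p of 2.06e-06. In the other direction, it was 0.11 with the ribosomal RNA share as a factor (unadjusted p = 0.165, adjusted p = 0.773), and 0.17 without the replicate block (unadjusted p = 0.350, adjusted p = 0.718).

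With norepinephrine, Olfm4 was at 3876, 3024, 4471, 3017 and 3843 CPM in m1 to m5, beside 3658, 2762, 3839 and 3210 CPM in HCl vehicle m1 to m4. The agonist library was higher at 3 of the 4 shared numbers and lower at m4, and the fold change was 1.08 (0.964 to 1.21, adjusted p = 0.648). Here too a single choice mattered, since without the low-count filter the log2 fold change of 0.12 had an adjusted p of 0.0296. The estimate of 0.11 fell to 0.049 with the GC trend removed and to 0.060 without the HCl vehicle library m3. Leaving out the norepinephrine library m4 raised it to 0.20 (adjusted p = 0.0645), and with that library absent 2529 genes passed with norepinephrine and 1225 with UK14,304, in place of 16 and 186, while none of the 10 did.

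Lgr5, the receptor that defines the crypt base columnar stem cell, did not pass with either agonist. Its levels were 169.7, 212.5, 175.7 and 198.9 CPM in HCl vehicle m1 to m4 and 194.4, 207.8, 181.7, 201.6 and 198.3 CPM with norepinephrine m1 to m5. In DMSO vehicle they were 166.6, 192.5, 204.5 and 204.4 CPM, and with UK14,304 they were 164.4, 199.2, 176.0, 214.6 and 173.1 CPM. The ranges of agonist and vehicle values overlapped, and the same replicate numbers gave both higher and lower values with each agonist. The fold change was 1.05 with norepinephrine (0.968 to 1.14, adjusted p = 0.666) and 0.970 with UK14,304 (0.895 to 1.05, adjusted p = 0.737).

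Other crypt base markers moved as little. Ascl2 was at 15.6 ± 0.977 CPM in HCl vehicle (SD, n = 4) and 14.7 ± 1.55 CPM with norepinephrine (n = 5), and at 15.4 ± 2.94 CPM in DMSO vehicle (n = 4) and 14.8 ± 1.64 CPM with UK14,304 (n = 5). The fold intervals were 0.855 to 1.08 with norepinephrine and 0.877 to 1.11 with UK14,304. Smoc2, which encodes a secreted matrix protein, had the narrowest intervals of this group, 0.986 to 1.10 with norepinephrine and 0.985 to 1.09 with UK14,304. For Gkn3 they were 0.907 to 1.11 and 0.866 to 1.06. Tnfrsf19, a receptor of the tumour necrosis factor family, could have changed by a large factor without being detected, as its intervals ran from 0.586 to 1.77 and from 0.551 to 1.56.

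The feedback inhibitors gave small estimates in both comparisons. Axin2, whose product forms part of the complex that degrades β-catenin and which is widely used as a readout of Wnt activity, was at 194.1, 176.9, 244.4 and 199.6 CPM in HCl vehicle m1 to m4 and at 200.6, 176.0, 218.2, 206.9 and 191.7 CPM with norepinephrine m1 to m5. In DMSO vehicle it was at 189.2, 168.2, 237.7 and 199.8 CPM, and with UK14,304 at 201.2, 179.0, 235.3, 188.1 and 211.0 CPM. In every group m2 was the lowest library and m3 the highest, and the agonist values overlapped those of the vehicle. The fold change was 0.979 with norepinephrine (0.919 to 1.04, adjusted p = 0.802) and 1.02 with UK14,304 (0.960 to 1.09, adjusted p = 0.747).

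Rnf43 and Znrf3, the paired ubiquitin ligases, were lower with UK14,304 than with DMSO vehicle at all 4 shared replicate numbers, as were 15.5% of all genes. The fold changes were 0.960 for Rnf43 (0.909 to 1.01, adjusted p = 0.474) and 0.947 for Znrf3 (0.889 to 1.01, adjusted p = 0.403), so neither passed. With norepinephrine none of the 10 genes was higher at all 4 numbers and none was lower at all 4, which 5.32% and 8.28% of all genes were. Sox9 had intervals of 0.920 to 1.03 with norepinephrine and 0.985 to 1.11 with UK14,304.

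The agonist effects were also compared with each other, and the vehicles with each other. None of the 10 genes passed when the effect of 1 agonist was set against that of the other or when HCl was set against DMSO vehicle, and none had an unadjusted p under 0.05 in either. Across all genes 0% passed in each of these tests, and 2.66% and 1.82% respectively had an unadjusted p under 0.05. The nearest to a difference between the agonists was Sox9, with a log2 difference (UK14,304 effect minus norepinephrine effect) of 0.098 (95% interval -0.018 to 0.21).

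The replicate number accounted for more of the spread than the treatment did (plot of variance shares). Over the 16 libraries m1 to m4, it took from 54.2% (Tnfrsf19) to 91.1% (Axin2) of the variance of log2 CPM among the 10 genes, where the median of all genes tested was 26.0%. The group took 0.527% (Tnfrsf19) to 13.9% (Rnf43), with a median of 17.6% over all genes. A test of the replicate number in the same edgeR fit, chosen after these values had been seen, called 8 of the 10 genes at an adjusted p under 0.05, against 13.8% of all genes. Axin2 had the lowest adjusted p of the 10 (3.35e-05), followed by Olfm4 (0.000256) and Smoc2 (0.00241). Sox9 (adjusted p = 0.0867) and Tnfrsf19 (adjusted p = 0.0504) did not pass. In the 8 vehicle libraries alone, which saw no agonist, 9 of the 10 passed. The share of all genes that passed in that smaller fit is not given here. The 13.8% belongs to the fit of all 18 libraries and is no yardstick for that count.

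**Figure D3:**
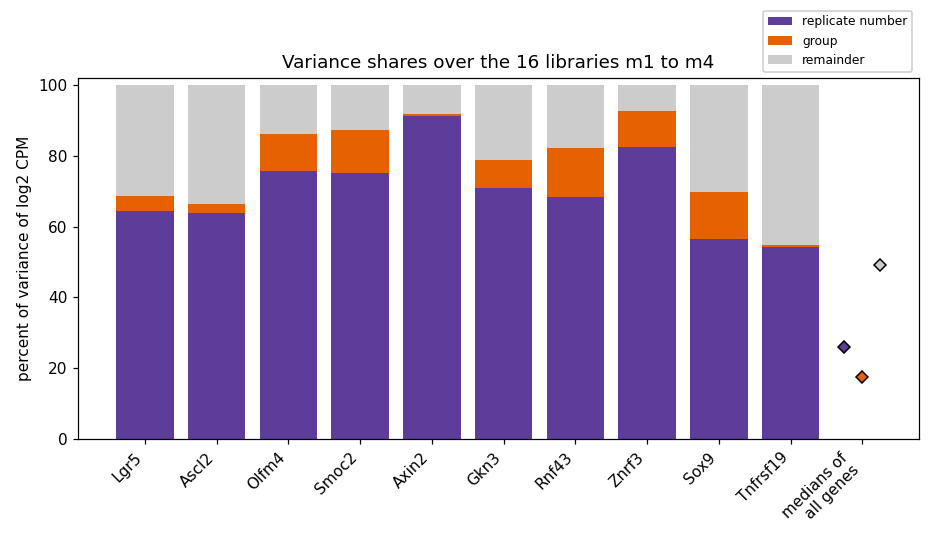
Percent of the variance of log2 CPM over the 16 libraries m1 to m4 that goes with replicate number (purple), group (orange) and the remainder (grey) for each gene, and, as diamonds at the right, the median of each share over all genes tested. The purple share is above 54% for all 10 genes, against a median of 26.0%.

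The means of m2 and m3 were the lowest and the highest for 5 of the 10 genes, and the 10 did not all move in 1 direction (plot of levels by replicate number). These 5 were among the 8 that passed the test of the replicate number. Of the 2110 genes that passed it, 452 had their lowest mean in m2 and their highest in m3. Olfm4, Smoc2, Axin2, Rnf43 and Znrf3 were each highest in m3 in all 4 groups, and Ascl2 in 3 of the 4. Ascl2, Olfm4, Smoc2, Axin2 and Znrf3 had their lowest mean in m2. Between the highest and the lowest number the mean of Olfm4 differed 1.57-fold, that of Axin2 1.34-fold, that of Ascl2 1.27-fold, those of Smoc2 and Znrf3 1.17-fold and that of Rnf43 1.12-fold. Gkn3 ran the other way and was lowest in m3 in all 4 groups: it stood at 15.1, 16.7, 15.1 and 16.6 CPM in the HCl vehicle, norepinephrine, DMSO vehicle and UK14,304 libraries of m3, and at 17.2 to 21.4 CPM in the libraries of m1, m2 and m4. Lgr5 followed neither pattern, being lowest in m1 and highest in m4, a 1.18-fold difference (adjusted p = 0.0238). Without the 4 libraries of m3, 1 of the 10 genes passed the test of the replicate number (7 at an unadjusted p under 0.05), and 545 of all genes in place of 2110. Without those of m2, 1 of the 10 passed as well (10 at an unadjusted p under 0.05), and 808 of all genes. Without those of m1, 5 of the 10 passed (the count of all genes is given in the last section). Without those of m4 all 10 did, and 4459 of all genes. Leaving out only the m3 library of HCl vehicle left 3 of the 10, that of DMSO vehicle 5 and that of UK14,304 5. Over all genes, leaving out 1 library at a time gave 1503 to 3581 calls, the lowest without the UK14,304 library m3.

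**Figure D4:**
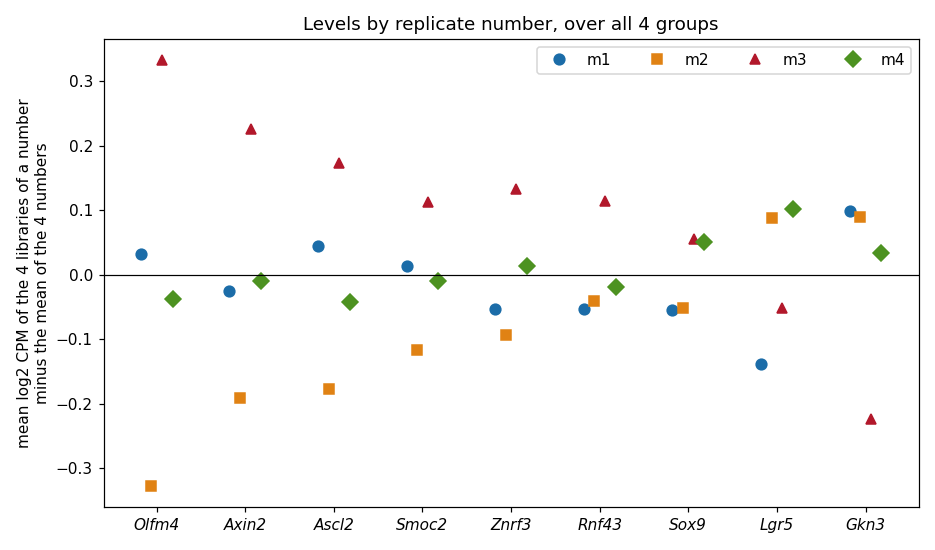
Mean log2 CPM of the 4 libraries of each replicate number (1 per group), minus the mean of the 4 numbers, for the 9 genes other than Tnfrsf19. The m3 mean (red triangles) is highest for Olfm4, Axin2, Ascl2, Smoc2, Znrf3, Rnf43 and Sox9 and lowest for Gkn3, and Lgr5 has its lowest mean in m1.

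Correlations between the genes over the 18 libraries, given as a description because libraries share replicate numbers and vehicles, showed the same split. Pearson's r was 0.852 between Smoc2 and Axin2, 0.817 between Axin2 and Znrf3 and 0.800 between Axin2 and Rnf43. Gkn3 was inversely related to Znrf3 (r = -0.761), Olfm4 (r = -0.735) and Axin2 (r = -0.718). Lgr5 had r = -0.482 with Smoc2 and -0.345 with Axin2, and its highest r with any of the others was 0.0996, with Sox9. Among the genes outside the 10 whose levels were most like those of Lgr5 were Gm22753 (r = 0.791), Btc (r = 0.791), which encodes the growth factor betacellulin, Galnt7 (r = 0.790), which encodes a glycosyltransferase, and Rgs4 (r = 0.785), which encodes a regulator of G protein signalling. Gm22753 averaged only 0.456 CPM.

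The promoter windows of Axin2 and Gkn3 are shown because these genes had a window and moved in opposite directions across the replicate numbers. The windows are 300 bases long, from 250 before to 50 after the start of transcription, taken from RefSeq on GRCm38.p6 and written 5′ to 3′ on the strand of the gene. The Axin2 window is chr11:108920099-108920398 on the plus strand and the Gkn3 window is chr6:87388886-87389185 on the minus strand. Capitals would mark the letters CTTTGAT or CTTTGAA on either strand, forms of the sequence that TCF factors bind, and neither window holds them.
Axin2: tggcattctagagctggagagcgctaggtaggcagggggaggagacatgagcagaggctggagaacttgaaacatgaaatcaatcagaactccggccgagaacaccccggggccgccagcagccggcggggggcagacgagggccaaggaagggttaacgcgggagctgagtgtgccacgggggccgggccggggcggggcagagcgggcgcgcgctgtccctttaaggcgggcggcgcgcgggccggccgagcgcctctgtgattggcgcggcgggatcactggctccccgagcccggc
Gkn3: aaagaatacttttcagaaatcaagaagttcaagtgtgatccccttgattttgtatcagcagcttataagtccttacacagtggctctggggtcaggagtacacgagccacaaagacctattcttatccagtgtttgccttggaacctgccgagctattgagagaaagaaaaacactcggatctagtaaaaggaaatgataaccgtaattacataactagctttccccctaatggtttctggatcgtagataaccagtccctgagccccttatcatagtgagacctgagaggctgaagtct
Windows were found for 6 of the 10 genes, 8 windows in all, and 1 of them held CTTTGAT, the window of a Tnfrsf19 start at chr14:61037938-61038237 on the minus strand, shown with the match in capitals. Either form was present in 8.65% of all 32851 windows of this length. The absence of these letters says nothing of TCF binding elsewhere in the genes.
Tnfrsf19: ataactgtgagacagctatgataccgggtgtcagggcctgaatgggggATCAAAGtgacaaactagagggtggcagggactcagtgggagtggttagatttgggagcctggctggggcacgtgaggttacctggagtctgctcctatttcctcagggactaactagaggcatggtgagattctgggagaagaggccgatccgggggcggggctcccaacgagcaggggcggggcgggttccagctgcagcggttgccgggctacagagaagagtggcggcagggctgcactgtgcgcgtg

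Other genes of the pathway, from lists of Wnt targets and components, gave no call with either agonist. Of 14 further Wnt target genes 12 were tested (Notum and Lef1 had too few counts), with a median log2 fold change of -0.037 with norepinephrine and 0.010 with UK14,304. Those with the highest levels were Ephb2 and Sox4, at 223.8 and 187.6 CPM, then Myc at 167.1 and Ccnd1 at 148.5 CPM. Of 22 signalling components 20 were tested, among them the ligand gene Wnt3, the receptor genes Fzd5, Lrp5 and Lrp6, and Ctnnb1, which encodes β-catenin and was the most abundant at 892.4 CPM. Their medians were -0.051 and -0.043, and 6 of the 20 with norepinephrine (all 6 with a negative estimate) and 2 with UK14,304 had an unadjusted p under 0.05, beside the 8.40% and 14.8% of all genes.

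The 14 further crypt base genes and 5 proliferation genes were also without a call. The crypt base genes had a median log2 fold change of 0.017 with norepinephrine (10 above and 4 below 0). With UK14,304 it was 0.039 (9 above and 5 below 0, from -0.12 to 0.21). Slc12a2, a chloride cotransporter gene enriched in crypts and at 1234 CPM the most abundant of the crypt base list, was estimated at 0.14 on the log2 scale under norepinephrine (adjusted p = 0.593) and at 0.19 under UK14,304 (adjusted p = 0.213). Mki67, which marks cycling cells, had 0.091 (adjusted p = 0.593) and 0.16 (adjusted p = 0.0893). The 5 proliferation genes were divided, with 3 estimates above and 2 below 0 under each agonist (medians 0.032 and 0.063). Top2a was at 0.12 and 0.16, and Pcna at -0.033 and -0.078. At an unadjusted p of 0.05, 1 of the 5 passed with norepinephrine, against 8.40% of all genes. With UK14,304 3 passed (Mki67 and Top2a higher, Pcna lower), against 14.8% of all genes. At all 4 shared replicate numbers 3 of the 5 were higher with UK14,304, as were 14.0% of all genes, and 0 with norepinephrine, where 5.32% of all genes were.

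Some markers of neighbouring cells passed. Paneth cells sit between the stem cells of the crypt and supply them with Wnt ligand, and 2 of their 6 markers passed with norepinephrine and 3 with UK14,304, all of them lower, while the estimates of all 6 were negative with both agonists. Of 4 goblet cell markers, 0 passed with norepinephrine and 1 with UK14,304. Lyz1, which encodes lysozyme, fell by 0.37 on the log2 scale with norepinephrine (adjusted p = 0.0019) and by 0.31 with UK14,304 (adjusted p = 0.0031). Defa22, a defensin gene, fell by 0.69 (adjusted p = 0.0062) and by 0.70 (adjusted p = 0.0021). Ang4, an antimicrobial ribonuclease gene, fell by 0.27 with UK14,304 (adjusted p = 0.022), and the goblet cell gene Agr2 by 0.16 (adjusted p = 0.0324). Without the replicate block none of these 4 genes passed, with adjusted p of 0.713 and 0.723 for Lyz1 and Defa22 with norepinephrine and of 0.260 (Agr2) to 0.542 (Ang4) with UK14,304. None of the enterocyte, enteroendocrine or tuft cell markers passed.

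By replicate number, other lists moved beside the 10 genes (means over the 4 groups). The test of the replicate number called 13.8% of all genes. Of the further Wnt targets 6 of 12 passed it, all 6 highest in m3 (Ccnd1, Cd44, Apcdd1, Prox1, Sox4 and Fzd7), and of the further crypt base genes 8 of 14 passed, with Cdca7, Rgmb, Msi1, Mex3a and Fstl1 highest in m3 and Vdr, Soat1 and Prom1 lowest there. Of the 20 signalling components 6 passed, 2 of them highest in m3 (Wnt3 and Wls) and 3 lowest there (Porcn, Ctnnb1 and Tcf7l2). Of all 2110 genes that passed, 27.8% were highest in m3 and 61.0% lowest in m3. All 4 enterocyte markers passed and were lowest in m3, where their summed level was 6010 to 7060 CPM against 8590 to 10700 CPM in the other numbers. The 5 enteroendocrine markers summed to 336 to 347 CPM in m3 and to 367 to 484 CPM elsewhere. All 6 Paneth markers passed and were lowest in m2, where they summed to 1990 to 2430 CPM, beside 2760 to 3690 CPM in m1, 2730 to 3570 CPM in m3 and 2160 to 3090 CPM in m4. The goblet markers summed to 1070 to 1200 CPM in m2 and to 744 to 920 CPM elsewhere. The non-epithelial markers summed to 1.26 to 2.52 CPM in m3 and to 0.781 to 2.09 CPM elsewhere, total counts in m3 were 22.4 to 25.8 M, and 1 of the 4 m3 libraries had the high ribosomal RNA share. The part of these differences in the results for the 10 genes was not tested.

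The positions of the genes on GRCm38 bear on how reads were assigned. The Lgr5 row spans chr10:115450311-115587780 on the minus strand and the Axin2 row chr11:108920349-108950783 on the plus strand. Exons of Axin2 overlap those of Gm11670 on the opposite strand, which averaged 9.39 counts, and exons of Olfm4 (chr14:79984081-80023139, plus strand) overlap those of Gm6999, which averaged 6.89 counts. No transcript of the 10 genes shared 200 bases or more at 95% identity with another gene.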

How the data were processed

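The members and all gene lists were chosen with earlier results of these data known. The authors mapped single-end reads with STAR 2.7.3 to GRCm38 and counted them on exons; the deposited table holds raw counts per gene, not normalized, with the length of the merged exons. Per the file headers the counting used featureCounts 2.0.1 without a strand setting and Ensembl 102, whereas the submitters' processing notes name Subread 1.6.4. All 18 count columns were matched to samples by title. Symbols were found for 55141 of 55487 identifiers.

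For the tests, edgeR 4.0.16 in R 4.3.3 fitted 1 robust quasi-likelihood model (TMM scaling, low counts filtered with filterByExpr by group) of the 4 groups over 18 libraries with the replicate number as a block, and Benjamini-Hochberg adjusted p under 0.05 was called. log2 CPM used a prior count of 2. Intervals are 95% intervals of the fit. The number after m in the titles pairs the libraries: deviations from the group means correlated at each of the 4 shared numbers, by 0.119 to 0.431 for norepinephrine and HCl vehicle and by 0.155 to 0.520 for UK14,304 and DMSO vehicle. Of all 25 pairs with the same number, 23 correlated by more than 0.1, and the lowest value was -0.212. The m5 libraries have no vehicle partner. The labels do not say what a number stands for, so p-values measure the spread between these libraries, which may be in part technical. DESeq2 1.42.0 was the alternative tool, and transcripts were compared with blastn 2.17.0. Other size factors, low-count filters, removal of the GC trend (lowess span 0.3), the ribosomal RNA share as a factor, smaller sets of libraries and each library left out in turn were also tried, and the test of the replicate number was added after the values were seen. The fits were also run on simulated counts with planted changes larger than any estimate for the 10 genes. Those runs cannot show whether changes as small as the ones estimated here would be found. Named genes were the 10 members, genes of the lists that passed with an agonist or else up to 4 of the most abundant, and the 5 genes most correlated with Lgr5, of which 1 is not reported here; Wnt3, Fzd5, Lrp5, Lrp6 and Mki67, and the genes named by replicate number, were added after their values were seen.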

Additional observations from a re-analysis of the deposited data

How the results depend on the processing

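None of the 10 genes passed in the difference between the agonist effects or in HCl against DMSO vehicle under any setting. With the agonists, 1 of the 10, Olfm4, passed without the low-count filter (both agonists) and with UK14,304 and DMSO vehicle alone in the fit. The 10 genes had 538 values under 27 alternatives, most of them of genes other than Olfm4, and all 3 that passed were of Olfm4. The cause was not tested.

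The replicate block was 1 of several choices that changed how many genes passed. Without it 0 passed with norepinephrine and 6 with UK14,304, in place of 16 and 186, none of them among the 10. The log2 fold changes of Gkn3 with norepinephrine (-0.020), Tnfrsf19 with UK14,304 (0.036) and Smoc2 in the difference between the effects (0.00049) then changed sign. Of all genes, 153 passed with norepinephrine, 627 with UK14,304, 24 in the difference and 17 between the vehicles without the low-count filter, and 1 in the difference with at least 10 counts in every sample. With the GC trend removed the counts were 40, 645, 3 and, for the replicate number, 3859. With the ribosomal RNA share as a factor 78 passed with UK14,304, with that agonist and its vehicle alone 525, and with DESeq2 34 with norepinephrine and 1 in the difference. In the test of the replicate number, 545 genes and 1 of the 10 passed without m3, 808 and 1 without m2, 1718 and 5 without m1, and 4459 and 10 without m4; these tests were chosen after seeing the data.

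Signs of small estimates changed. Removing the GC trend turned Ascl2 (0.045), Axin2 (0.034) and Rnf43 (0.0091) with norepinephrine, Ascl2 with UK14,304 (0.063) and Smoc2 in the difference (0.0015). The ribosomal RNA factor turned Ascl2 with UK14,304 (0.027) and Olfm4 in the difference (-0.0061). Tnfrsf19 with norepinephrine turned with that agonist and its vehicle alone (-0.019) and without m5 (-0.023). With 1 library left out, the log2 fold change with norepinephrine ran from -0.107 to 0.0038 for Ascl2, from -0.048 to 0.0069 for Axin2, from -0.030 to 0.040 for Gkn3 and from -0.186 to 0.317 for Tnfrsf19. With UK14,304 it ran from -0.088 to 0.034 for Lgr5, from -0.064 to 0.075 for Ascl2 and from -0.431 to 0.360 for Tnfrsf19. The difference between the effects ran from -0.017 to 0.124 for Ascl2, from -0.0023 to 0.124 for Olfm4, from -0.023 to 0.015 for Smoc2, from -0.029 to 0.014 for Rnf43 and from -0.474 to 0.319 for Tnfrsf19.

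Leaving out 1 library gave 10 to 2529 genes with norepinephrine, 68 to 1225 with UK14,304, 0 to 1 in the difference and 0 to 0 between the vehicles, and 0 to 0 of the 10 genes in each. For the replicate number it gave 1503 to 3581 genes and 3 to 10 of the 10. The highest counts came without the norepinephrine library m4; without the UK14,304 library m4, 27 genes passed with norepinephrine, 1 in the difference and 3189 for the replicate number. The lowest came without HCl vehicle m1 (norepinephrine) and DMSO vehicle m2 (UK14,304); 95, 119 and 91 passed with UK14,304 without DMSO vehicle m3, UK14,304 m2 and UK14,304 m3. Counts of 4 to 39 per library limit what could be seen for Tnfrsf19.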
